A study of Mus musculus with 4 samples.

Results

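The Eph receptors, ephrins, semaphorins, plexins, neuropilins, Slits and Robos are the contact and secreted cues, with their receptors, that steer growing axons, vessels and migrating cells and keep neighbouring cell populations apart. The set described here holds 59 such genes, out of 35682 genes in the deposited expression table, and all 59 were found there. They were chosen by gene symbol as members of these families, with earlier results of these data known. RNA was sequenced from mouse forelimb buds at E11.5, with 1 library for the forelimb pair of each individual embryo and 4 libraries in all. The 2 knockout embryos were PrxCre/+;Smarcc1c/c. They carried 2 conditional alleles of Smarcc1, the gene of BAF155, a core protein of the BAF chromatin remodeller, and a Cre transgene driven by Prx1 regulatory sequence that is active in limb bud mesenchyme. The 2 control embryos were Prx+/+;Smarcc1c/c, with the same conditional alleles and no Cre. Each genotype had 1 embryo at 40 somites, called replicate 1, and 1 at 39 somites, called replicate 2, and below the values of each genotype are given in that order. The title of the series concerns repression by GLI, the transcription factors of Hedgehog signalling, and the question put to these genes is which guidance cues and receptors differ in level when Smarcc1 is deleted in limb mesenchyme.

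Values are TPM, a relative abundance in which transcript length and library size are divided out, so that levels can be compared between genes. The read depth behind them is unknown, and precision rests on the spread between embryos. Between 12555 and 12689 genes reached 1 TPM in each library. Smarcc1, which checks the labels, stood at 46.2 and 38.4 TPM in knockout buds and 112 and 119.6 TPM in control buds. Limb mesenchyme genes chosen as markers (8 of 8 detected, among them Prrx1, Tbx5 and Twist1) summed to between 811 and 1005 TPM in the 4 libraries. The buds also held ectoderm, blood and vessel cells, in which this Cre is not active, and in whole tissue fewer cells of a type and less RNA per cell cannot be told apart. Y-linked Ddx3y stood at 0.0498 and 28.3 TPM in knockout buds and 0.0130 and 30.2 TPM in control buds, so embryo sex coincided with somite stage and was balanced between the genotypes. Differences were tested with limma on log2(TPM + 1) over 12809 genes with at least 1 TPM in at least 2 libraries, and p-values were adjusted over all of these by the Benjamini-Hochberg method with a threshold of 0.05.

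Ephrins are membrane-bound ligands of the Eph receptor tyrosine kinases, with the A class anchored by lipid and the B class spanning the membrane, and contact between the 2 sides often ends in repulsion. Semaphorins signal through plexins, and most secreted class 3 semaphorins need a neuropilin, Nrp1 or Nrp2, as the part of the receptor that binds them. Slits are secreted repellents read by Robo receptors. In the limb bud these systems are best known for sorting motor axons into dorsal and ventral nerves, for patterning vessels, and for setting borders within the mesenchyme.

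Nrp2, the neuropilin that binds Sema3f, and Epha7, an EphA receptor of limb mesenchyme, rose in the knockout forelimbs. Nrp2 reached 2.36 times its mean control TPM and Epha7 1.87 times. The Slit receptor gene Robo2 stood at 1.69 times its control mean, and Epha2, Epha3 and the ephrin gene Efnb1 stood at 0.462, 0.453 and 0.561 of theirs, without passing the threshold. Of the 59 genes, 50 passed the filter on low values and were tested. Among these, 2 rose and 0 fell at an adjusted p under 0.05 in limma, while over all genes tested 0.812% rose and 0.492% fell. Without adjustment, 6 of the 50 guidance genes were higher and 9 lower at p under 0.05, and over all genes 6.78% were higher and 6.89% lower. Both knockout libraries lay above both controls for 14 of the 50 genes and below both for 16. The share without overlap in either direction was 60.0% (30 of 50), against 43.9% of all genes tested. The median log2 fold change of the 50 genes was -0.05, against 0.0084 over all genes tested. The median size of the change regardless of direction was 0.24, against 0.14. Because the set was chosen with earlier results of these data known, these contrasts with all genes are no test of the set.

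A model with somite stage as a block passed 3 higher and 3 lower guidance genes, where 2.08% of all genes were higher and 2.08% lower, 4.16% in either direction. The 3 higher genes were Nrp2, Epha7 and Robo2, and the 3 lower ones Epha3, Efnb1 and Ephb2. Because stage was balanced between the genotypes, the fold changes are the same in both models. Taken within each stage, the knockout-minus-control difference had the same sign at 40 and at 39 somites in 43 of the 50 genes (86.0%). Over all genes tested the share was 69.2%, a contrast that is likewise no test of the set.

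**Figure D1:**
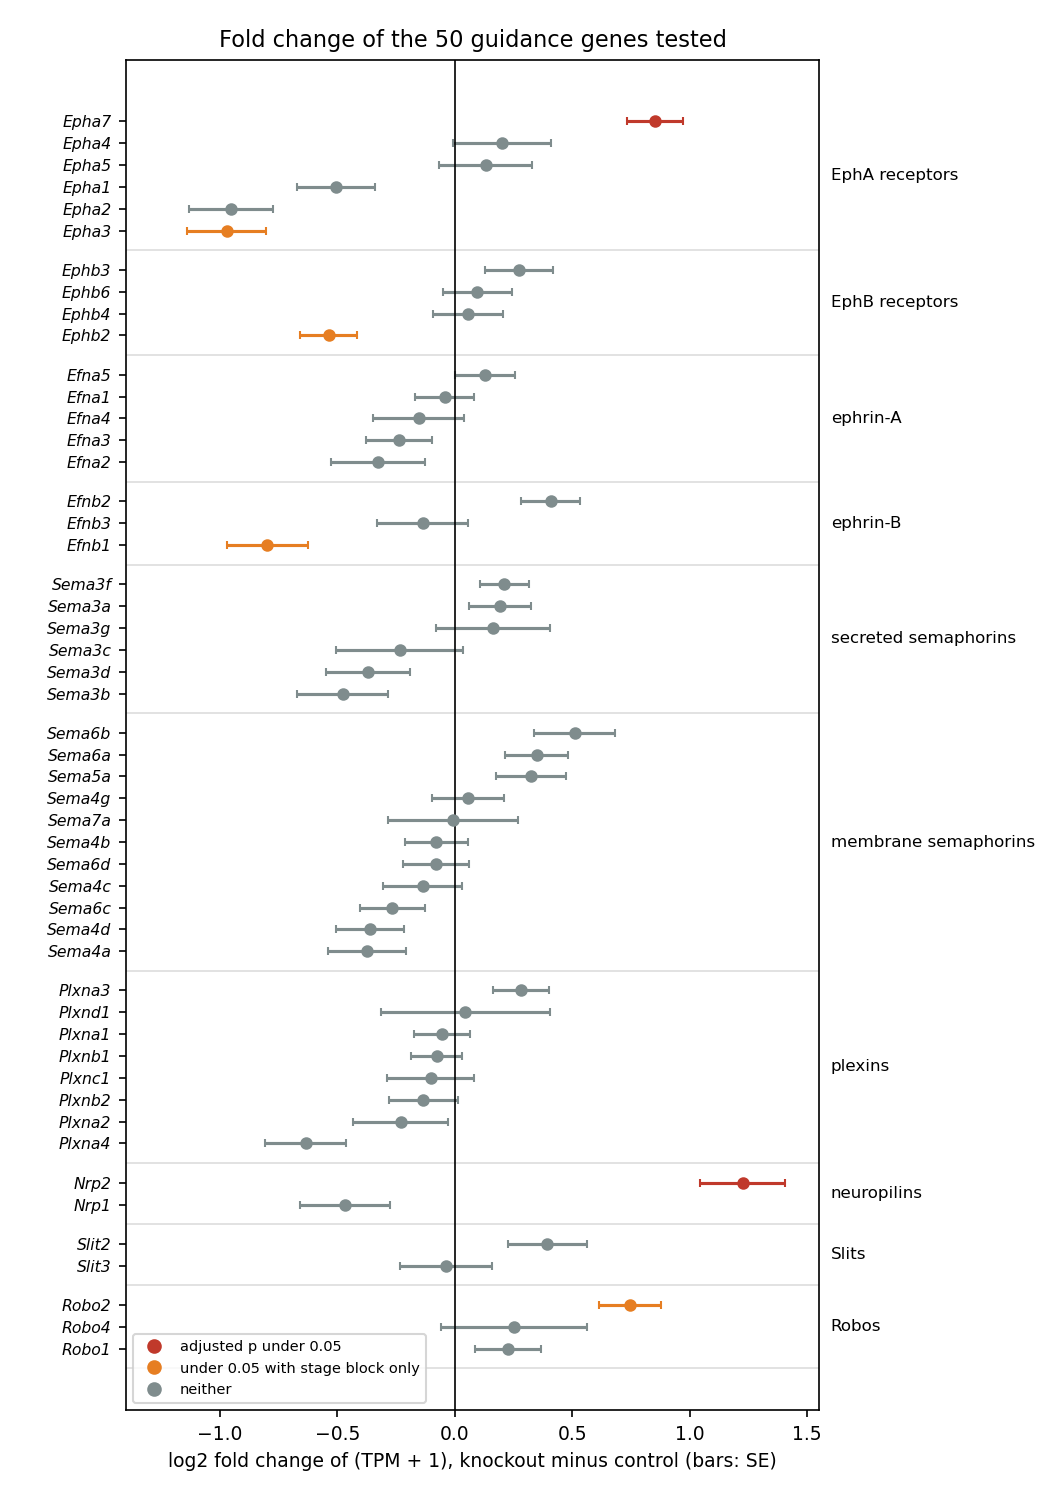
Log2 fold change of TPM + 1, knockout minus control, for the 50 guidance genes tested, ordered within families; points are estimates from 2 knockout and 2 control libraries and bars are the SE from limma. Nrp2 (1.23) and Epha7 (0.85), in red, passed at an adjusted p of 0.05, and Robo2, Epha3, Efnb1 and Ephb2, in orange, passed with somite stage as a block and not without it.

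The promoters of 4 of these genes are shown because they are the genes with the largest rises and falls among those past the threshold in at least 1 of the 2 models that also have a single or closely spaced start; Robo2, with 3 annotated starts far apart, is not shown. Each line is the 300 bases around the most upstream RefSeq start on GRCm38.p6, read 5′ to 3′ on the strand of the gene, with CG dinucleotides in capitals. The Nrp2 window is chr1:62703067-62703366 on the plus strand, that of Epha7 chr4:28812881-28813180 on the plus strand, that of Epha3 chr16:63864126-63864425 on the minus strand and that of Efnb1 chrX:99135811-99136110 on the plus strand.
Nrp2: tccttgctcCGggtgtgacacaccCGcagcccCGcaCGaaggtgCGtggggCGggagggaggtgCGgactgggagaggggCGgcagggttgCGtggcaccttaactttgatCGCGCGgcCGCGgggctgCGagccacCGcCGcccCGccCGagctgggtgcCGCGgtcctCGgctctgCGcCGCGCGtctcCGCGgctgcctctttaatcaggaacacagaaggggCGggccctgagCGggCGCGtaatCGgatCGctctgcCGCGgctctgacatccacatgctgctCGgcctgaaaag
Epha7: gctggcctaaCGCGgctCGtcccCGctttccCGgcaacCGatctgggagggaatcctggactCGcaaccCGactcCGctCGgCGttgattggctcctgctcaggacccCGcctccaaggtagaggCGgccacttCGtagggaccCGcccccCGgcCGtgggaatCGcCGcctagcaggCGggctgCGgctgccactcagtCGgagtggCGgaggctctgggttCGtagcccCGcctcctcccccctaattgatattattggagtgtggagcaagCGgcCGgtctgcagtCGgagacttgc
Epha3: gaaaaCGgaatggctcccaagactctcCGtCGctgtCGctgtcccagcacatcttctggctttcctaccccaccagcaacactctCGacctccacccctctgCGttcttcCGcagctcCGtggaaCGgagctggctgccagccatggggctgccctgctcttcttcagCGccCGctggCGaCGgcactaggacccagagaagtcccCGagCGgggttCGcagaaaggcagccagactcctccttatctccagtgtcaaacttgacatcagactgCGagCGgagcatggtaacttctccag
Efnb1: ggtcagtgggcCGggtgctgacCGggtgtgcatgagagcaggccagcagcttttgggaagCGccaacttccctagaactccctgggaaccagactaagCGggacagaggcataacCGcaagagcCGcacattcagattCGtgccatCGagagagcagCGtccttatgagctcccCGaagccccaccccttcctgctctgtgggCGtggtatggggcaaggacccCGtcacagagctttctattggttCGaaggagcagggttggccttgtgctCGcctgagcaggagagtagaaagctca

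The windows of the 2 genes that rose hold 37 (Nrp2) and 28 (Epha7) CG dinucleotides, and those of Epha3 and Efnb1 hold 18 and 14. Of the other genes called with the stage block, the lower Ephb2 has 24 in its window, and the higher Robo2 has 17, 5 and 9 in its 3 windows, so CG content did not divide higher from lower genes. The ratio of observed to expected CG, which is near 1 where CG has not been lost, was 0.992 for Nrp2, 0.833 for Epha7, 0.676 for Epha3 and 0.527 for Efnb1. RefSeq windows were found for 52 of the 59 genes, 68 windows in all, and their median ratio was 0.659 with a median GC content of 64.0%, against 0.384 and 52.7% over 32851 windows of all genes. The share of windows with a ratio of at least 0.6 was 57.4% among the guidance genes and 35.8% among all windows. The GLI motif GACCACCCA, searched on both strands, was in 0 of the 68 windows and in 0.253% of all windows. TGANTCA, the AP-1 motif, was in 3 of the 68 windows (4.41%), those of Sema4c, Sema4d and Sema6b, against 7.81% of all windows. TAATTA, a homeobox core, was in 3 (4.41%), those of Efna1, Epha5 and Robo3, against 5.29%. These are matches of letters in short windows and say nothing of binding.

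**Figure D2:**
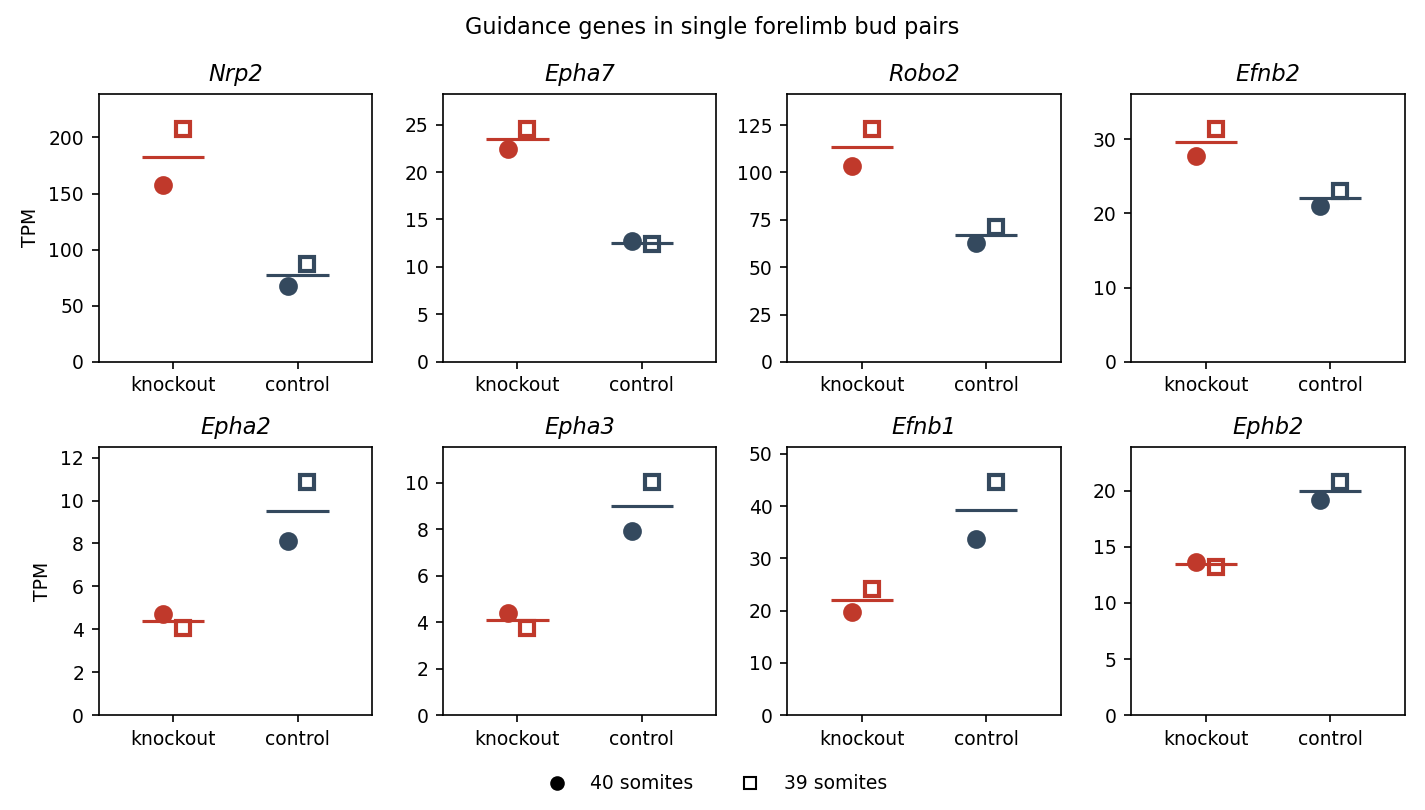
TPM of 8 guidance genes in each library (y axis, from 0), with knockout libraries in red on the left and control libraries in dark blue on the right; filled circles are embryos at 40 somites, open squares embryos at 39 somites, and lines are group means. Nrp2, Epha7, Robo2 and Efnb2 were higher in knockout buds and Epha2, Epha3, Efnb1 and Ephb2 lower. The 8 shown all have an unadjusted p under 0.05 in limma, so that their lack of overlap is no result. Of all genes tested, 43.9% did not overlap.

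Among the receptors of the semaphorin system, Nrp2 had the highest mean level of all 59 genes in both genotypes, although Plxnb2 was above it in control replicate 1 (69.0 against 67.8 TPM). Nrp2 (ENSMUSG00000025969, mm10 chromosome 1, 62703285 to 62818695, plus strand) stood at 158 and 208 TPM in knockout buds, against 67.8 and 87.3 TPM in control buds. Both knockout libraries lay well above both controls, and within each genotype the library at 39 somites was the higher. Limma gave it a log2 fold change of 1.23 with an SE of 0.18 over 2 libraries per genotype (Benjamini-Hochberg adjusted p = 0.0416), with differences of 1.21 at 40 somites and 1.24 at 39. The call ended without control replicate 1 (adjusted p = 0.108), without control replicate 2 (0.0639), under quantile normalization (0.0513), without a variance trend (0.0567) and with no filter on low values (0.206), while the log2 fold change lay between 1.03 and 1.42 in all 12 alternatives.

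Nrp1, the neuropilin for Sema3a and a coreceptor for VEGF in vessels, stood at 12.4 and 13.9 TPM in knockout buds, against 15.4 and 22.4 TPM in control buds. Both knockout values lay below both control values, but the log2 fold change of -0.47 ± 0.19 (SE from limma, as after each fold change below) missed the threshold (adjusted p = 0.365 in limma, unadjusted p = 0.0498). It was -0.73 without control replicate 1 and -0.21 without control replicate 2. The TPM ratio of Nrp2 to Nrp1 was 12.7 and 14.9 in knockout buds, against 4.41 and 3.89 in control buds. The neuropilins together made up 170.3 and 222 TPM in knockout buds and 83.1 and 109.8 TPM in control buds, almost all of it Nrp2.

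**Figure D3:**
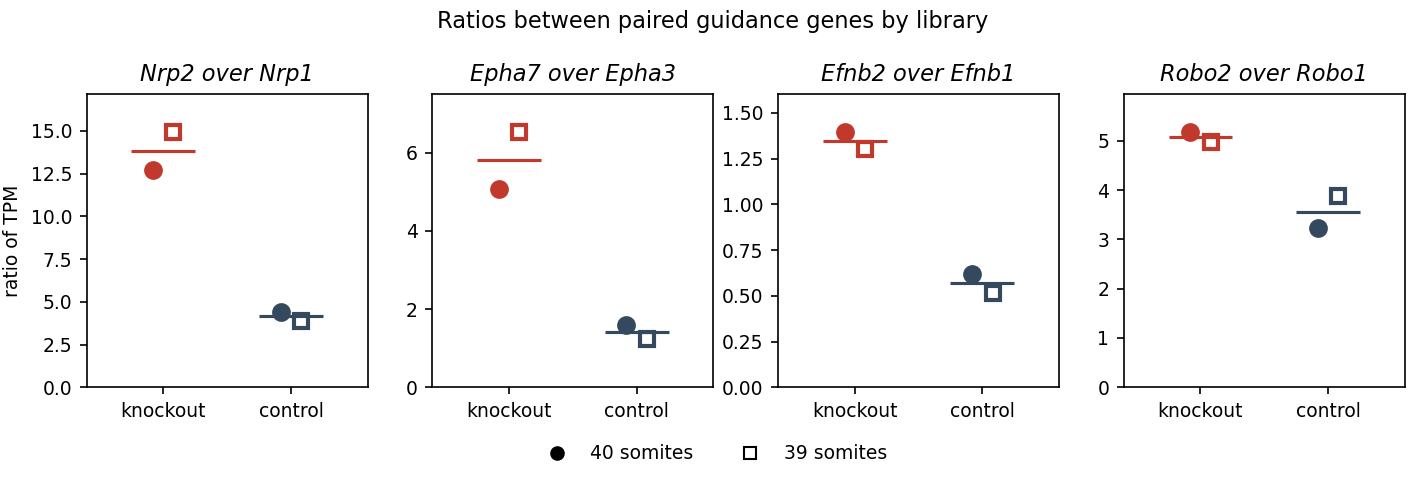
Ratio of TPM between pairs of related guidance genes in each library (y axis, from 0), knockout in red on the left and control in dark blue on the right, with circles for 40 somites, squares for 39 somites and lines for group means. The 4 pairs were picked with the values known from 7 ratios, of which Robo2 over Slit2 overlapped (13.9 and 22.0 in knockout buds, 13.3 and 15.4 in control buds). Nrp2 over Nrp1 is 12.7 and 14.9 in knockout buds against 4.41 and 3.89 in control buds. Nrp2, Epha7 and Efnb2 lay above both controls, and Nrp1, Epha3 and Efnb1 below. Their ratios had to separate, so that the lack of overlap in the 4 shown is no result.

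None of the 8 plexin genes of the set passed in limma, 1 (Plxna4) had an unadjusted p under 0.05, and the median log2 fold change of the 8 was -0.09. A further plexin gene, Plxnb3, was placed in the partner list and was too low to be tested. Plxna4, a plexin that joins Nrp1 in sensory neurons, stood at 0.917 and 0.759 TPM in knockout buds, against 1.69 and 2.03 TPM in control buds, with a log2 fold change of -0.63 ± 0.17 (limma, Benjamini-Hochberg adjusted p = 0.185). At these levels the pseudocount of 1 shrinks the log2 fold change, which was -1.06 with a pseudocount of 0.1, and the gene did not pass there either. Plxna4 reached 1 TPM only in control buds, so it entered the test through the group where it was higher. Plxna1, a partner of both neuropilins, stood at 20.4 and 22.0 TPM in knockout buds and 21.2 and 22.9 TPM in control buds. The 95% interval of its log2 fold change ran from -0.34 to 0.23. The most abundant plexin gene was Plxnb2, at 59.4 and 75.0 TPM in knockout buds and 69.0 and 77.9 TPM in control buds (95% interval -0.49 to 0.22).

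On the ligand side, 0 of the 17 semaphorin genes tested passed in limma. Before adjustment, 2 were higher and 2 lower at p under 0.05. Sema3f, the secreted ligand of Nrp2 and the most abundant semaphorin gene, stood at 63.2 and 66.2 TPM in knockout buds, against 57.4 and 54.1 TPM in control buds. The groups did not overlap, but the difference of 0.21 ± 0.11 on the log2 scale was small (limma, Benjamini-Hochberg adjusted p = 0.461). The TPM ratio of Nrp2 to this ligand was 2.50 and 3.14 in knockout buds, against 1.18 and 1.61 in control buds. Sema3a, a repellent that keeps axons out of the early limb, stood at 26.6 and 26.0 TPM in knockout buds and 25.2 and 20.8 TPM in control buds (95% interval of the log2 fold change -0.13 to 0.51). Sema3c, which acts through both neuropilins, stood at 7.01 and 4.20 TPM in knockout buds and 8.18 and 5.28 TPM in control buds, lower at 39 somites than at 40 in both genotypes.

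The semaphorin genes with an unadjusted p under 0.05 were all of low to moderate level. Sema6b, a membrane-bound ligand of the A plexins, stood at 1.50 and 1.74 TPM in knockout buds, against 0.729 and 0.954 TPM in control buds (log2 fold change 0.51 ± 0.17). Sema6a, another such ligand, stood at 9.96 and 11.0 TPM in knockout buds, against 7.74 and 8.27 TPM in control buds (0.35 ± 0.13). Sema3b, a secreted semaphorin, stood at 1.60 and 0.969 TPM in knockout buds, against 2.09 and 2.21 TPM in control buds (-0.48 ± 0.19). Sema4d, the ligand of plexin-B1, stood at 3.96 and 3.92 TPM in knockout buds, against 5.06 and 5.63 TPM in control buds (-0.36 ± 0.14). The adjusted p of these 4 genes in limma lay between 0.276 and 0.361. Both class 6 genes were higher and Sema3b and Sema4d lower in knockout buds. The 4 were named for their small p, so that their lack of overlap is no result. Sema6b reached 1 TPM only in knockout buds, so it entered the test through the group where it was higher.

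Among Eph receptors, Epha7 rose. It is a receptor for A-class ephrins whose limb expression depends on the 5′ Hox proteins of the digit region. Epha7 (ENSMUSG00000028289, mm10 chromosome 4, 28813131 to 28967499, plus strand) stood at 22.4 and 24.6 TPM in knockout buds, against 12.7 and 12.4 TPM in control buds. The control values were nearly equal, and both knockout libraries lay above them. Limma gave it a log2 fold change of 0.85 with an SE of 0.12 over 2 libraries per genotype (Benjamini-Hochberg adjusted p = 0.0373), with 0.77 at 40 somites and 0.93 at 39. The call ended without control replicate 1 (adjusted p = 0.0960), without control replicate 2 (0.111) and with no filter on low values (0.1505), and the log2 fold change lay between 0.70 and 0.92 in all 12 alternatives.

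Epha3 and Epha2 lay in the other direction. Epha3 (mm10 chromosome 16, 63543534 to 63864175, minus strand), another receptor for A-class ephrins, stood at 4.40 and 3.76 TPM in knockout buds, against 7.95 and 10.1 TPM in control buds. Its log2 fold change was -0.97 ± 0.17 (limma, Benjamini-Hochberg adjusted p = 0.0646, and 0.0458 with somite stage as a block), and it also passed without knockout replicate 1 (0.00139) or 2 (0.0175). Epha2 (mm10 chromosome 4, 141301240 to 141329384, plus strand), a receptor known from epithelia, stood at 4.74 and 4.04 TPM in knockout buds, against 8.14 and 10.9 TPM in control buds (-0.95 ± 0.18; limma, Benjamini-Hochberg adjusted p = 0.0809, and 0.0545 with the block), passing only without knockout replicate 1 (0.00162) or 2 (0.0213). For both genes the values did not overlap and the difference was larger at 39 than at 40 somites. The TPM ratio of Epha7 to Epha3 was 5.08 and 6.54 in knockout buds, against 1.60 and 1.23 in control buds.

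Epha1, an epithelial receptor, stood at 14.3 and 11.1 TPM in knockout buds, against 19.96 and 16.7 TPM in control buds, and missed the threshold (log2 fold change -0.51 ± 0.17; adjusted p = 0.262 in limma). Its span overlaps Zyx on the opposite strand, and how reads were divided between the pair is not known. Surface ectoderm markers are given beside Epha1 and Epha2. All 12 of 12 had a log2 fold change below 0, with a median of -0.42, 0 passed and 4 had an unadjusted p under 0.05 in limma. With somite stage as a block, Cldn6, Perp and Grhl3 passed as lower (limma, adjusted p = 0.0230, 0.0251 and 0.0496) and the other markers did not. Of all genes tested, 2.08% were lower with the block. The 12 summed to 499 and 315 TPM in knockout buds, against 637 and 417 TPM in control buds, and none of the 12 was at 0 in any library. The part of the ectoderm in the 2 receptors' values was not tested.

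Epha4, the most abundant Eph receptor gene and the receptor by which limb motor axons are sent dorsally, showed no separation. It stood at 61.3 and 60.6 TPM in knockout buds, against 42.2 and 66.4 TPM in control buds, so that the controls lay on both sides of the knockouts. The log2 fold change was 0.20 ± 0.21, with a 95% interval from -0.31 to 0.71 (limma, Benjamini-Hochberg adjusted p = 0.762). The summed level of the 9 EphA receptor genes was 108.5 and 105.3 TPM in knockout buds, against 92.3 and 118 TPM in control buds, and the genotypes overlapped. Epha5, the remaining EphA gene tested, stood at 1.11 and 0.873 TPM in knockout buds and 0.621 and 1.04 TPM in control buds, and Epha6, Epha8 and Epha10 stayed below 1 TPM. Of these, Epha10 was listed at 0 in knockout replicate 1.

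The EphB receptors were led by Ephb4, a marker of veins, which stood at 41.7 and 50.4 TPM in knockout buds and 40.2 and 48.4 TPM in control buds. Ephb2 (mm10 chromosome 4, 136647539 to 136835988, minus strand), a receptor for B-class ephrins on axons and at tissue borders, stood at 13.7 and 13.2 TPM in knockout buds, against 19.2 and 20.8 TPM in control buds. The difference was -0.54 ± 0.12 on the log2 scale and passed only with somite stage as a block (limma, Benjamini-Hochberg adjusted p = 0.121 without and 0.0496 with it). Ephb3, which often acts beside Ephb2, stood at 27.8 and 29.5 TPM in knockout buds and 20.9 and 26.5 TPM in control buds, with a log2 fold change of 0.27 ± 0.15. Ephb6, a receptor without kinase activity, stood between 5.31 and 6.51 TPM, and Ephb1 stayed under 1 TPM in all 4 libraries.

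Of the 8 ephrin genes, 0 passed in limma, with Efnb2 higher and Efnb1 lower at an unadjusted p under 0.05. Efnb1, an X-linked ligand that keeps cell populations apart in the skeleton and whose loss causes craniofrontonasal syndrome in humans, stood at 19.8 and 24.2 TPM in knockout buds, against 33.8 and 44.7 TPM in control buds. Its groups did not overlap, and its log2 fold change of -0.80 ± 0.17 passed with somite stage as a block but not without it (limma, Benjamini-Hochberg adjusted p = 0.0193 and 0.113), and also without knockout replicate 2 (0.00108). Efnb1 lies on the X chromosome at 99136130 to 99148991, and its difference was -0.74 at 40 somites and -0.86 at 39, the stages that coincided with embryo sex. Efnb2, the arterial ligand of Ephb4, stood at 27.7 and 31.4 TPM in knockout buds, against 20.98 and 23.0 TPM in control buds (0.41 ± 0.12; limma, Benjamini-Hochberg adjusted p = 0.230). The TPM ratio of Efnb2 to Efnb1 was 1.40 and 1.30 in knockout buds, so that Efnb2 was the more abundant, against 0.622 and 0.515 in control buds, where it was the less abundant.

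Of the 5 A-class ephrins, Efna5 lay higher and Efna3 lower in knockout buds without overlap, and the other 3 overlapped. The share without overlap, 40.0%, was near the 43.9% of all genes tested. Neither Efna5 nor Efna3 had an unadjusted p under 0.05 in limma. Efna4, the most abundant ephrin gene, stood at 37.8 and 46.5 TPM in knockout buds and 39.2 and 55.8 TPM in control buds (95% interval of the log2 fold change -0.63 to 0.32). Efna2, a ligand of EphA receptors in limb mesenchyme, stood at 22.9 and 28.2 TPM in knockout buds, against 26.6 and 38.7 TPM in control buds. Its groups overlapped, with both libraries at 39 somites above both at 40 (log2 fold change -0.33 ± 0.20). Efna5, the ligand that repels EphA4-bearing axons from ventral limb, stood at 12.3 and 12.6 TPM in knockout buds, against 11.9 and 10.7 TPM in control buds (0.13 ± 0.13). Efna3, another A-class ligand, stood at 4.77 and 4.46 TPM in knockout buds, against 5.78 and 5.46 TPM in control buds. Efna1, Efna3 and Efna4 are immediate neighbours among protein-coding genes on chromosome 3, and their log2 fold changes were -0.04, -0.24 and -0.15.

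The Robo genes were led by Robo2, the second most abundant guidance gene in knockout buds and the third in control buds. Robo2 (mm10 chromosome 16, 73891839 to 74411825, minus strand) stood at 103 and 123 TPM in knockout buds, against 62.6 and 71.4 TPM in control buds. Both knockout libraries lay above both controls, with a log2 fold change of 0.75 ± 0.13, 0.71 at 40 somites and 0.78 at 39. Its adjusted p in limma was 0.0704, and it passed with somite stage as a block (0.0175), under median-ratio scaling (0.0455) and without knockout replicate 1 (0.00162). Robo1, its neighbour on chromosome 16 with no protein-coding gene between them and a gap of 845743 bases, stood at 19.9 and 24.7 TPM in knockout buds and 19.3 and 18.4 TPM in control buds. Its log2 fold change was 0.23 ± 0.14, with a 95% interval from -0.12 to 0.57 (limma, Benjamini-Hochberg adjusted p = 0.574), and 0.077 without knockout replicate 2. The TPM ratio of Robo2 to Robo1 was 5.18 and 4.98 in knockout buds, against 3.24 and 3.88 in control buds.

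The Slit ligands of these receptors stood far below Robo2. Slit3 stood at 8.45 and 8.18 TPM in knockout buds and 6.98 and 10.5 TPM in control buds, and the controls lay on both sides of the knockouts (log2 fold change -0.04 ± 0.20). Slit2 stood at 7.42 and 5.61 TPM in knockout buds, against 4.72 and 4.64 TPM in control buds, without overlap (0.39 ± 0.17; limma, Benjamini-Hochberg adjusted p = 0.390). Slit1, known mainly from the nervous system, stayed between 0.298 and 0.414 TPM. Robo3, a receptor of commissural neurons, was listed at 0 in both controls and at 0.0313 and 0.165 TPM in knockout buds, so no fold is given.

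Nrp2 and Robo2 are also expressed by neurons. The 9 axon and neuron markers summed to 71.4 and 76.1 TPM in knockout buds, against 46.3 and 56.3 TPM in control buds, a sum made up mostly of Gap43 and Dcx. Of the 5 tested, 1 passed higher and 0 lower, and their median log2 fold change was -0.02. Dcx, a microtubule protein of young neurons, passed in limma (18.5 and 23.0 TPM in knockout buds, against 7.79 and 9.80 TPM in control buds), with an adjusted p of 0.0409, and Gap43 stood at 42.6 and 42.4 TPM in knockout buds, against 26.7 and 33.3 TPM in control buds. Tubb3 stood at 7.20 and 7.42 TPM in knockout buds and 8.49 and 9.54 TPM in control buds. Stmn2 and Elavl4 had log2 fold changes of -0.02 and -0.04, while Elavl3, Snap25, Nefl and Nefm were below 1 TPM in every library. Schwann cell markers summed to 10.1 and 7.89 TPM in knockout buds and 12.3 and 10.1 TPM in control buds, with Sox10 at most at 0.217 TPM and Foxd3 listed at 0 in both controls. The mesenchymal receptor gene Pdgfra, chosen as a marker of the tissue, stood at 162 and 173 TPM in knockout buds, against 79.5 and 84.0 TPM in control buds, and rose in limma (adjusted p = 0.0165). Msx1, another such marker, fell to 27.0 and 27.8 TPM in knockout buds, against 81.5 and 109 TPM in control buds (limma, adjusted p = 0.0117). Prrx1 stood at 129.9 and 139.8 TPM in knockout buds, against 188 and 201 TPM in control buds. Twist1 lay the other way, at 163 and 198 TPM in knockout buds, against 129 and 151 TPM in control buds. Tbx5, Hoxd13 and Fgf10 overlapped between the genotypes. Of the 8 mesenchyme markers, 3 were above 0 and 5 below, with a median log2 fold change of -0.12. Myoblast markers summed to 31.8 and 36.0 TPM in knockout buds, against 25.7 and 19.7 TPM in control buds, with 5 of 5 tested above 0. Macrophage markers summed to 14.8 and 11.9 TPM in knockout buds, against 15.6 and 22.4 TPM in control buds, with 0 of 5 above 0. Adgre1 and Cx3cr1 among them reached 1 TPM only in control buds, so they entered the test through the group where they were higher. Erythroid markers were above 0 in 5 of 5. Of the myoblast, macrophage and erythroid markers tested, 0 of 15 passed. The part of a shift in cell makeup in the Nrp2 and Robo2 values was not tested.

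Of the 50 guidance genes tested, 12 were higher and 2 lower in both libraries at 39 somites than in both at 40 (28.0% in all), against 34.2% and 7.88% of all genes (42.1% in all). The 12 include Plxnd1, Robo4 and Ephb4, known from vessels and picked with the values known, while the vascular genes Efnb2 and Nrp1 did not split by stage. The rest of the 12 were Ephb6, Efna2, Efna4, Efnb3, Sema3g, Sema4c, Sema7a, Plxna1 and Plxnb2. Plxnd1, the endothelial plexin that reads Sema3e, stood at 6.92 and 13.0 TPM in knockout buds and 6.59 and 12.8 TPM in control buds. Robo4, an endothelial Robo, stood at 2.76 and 4.39 TPM in knockout buds and 1.86 and 4.02 TPM in control buds. In both, each library at 39 somites lay above each at 40, as it did for Ephb4. The 12 endothelial markers were all detected and summed to 108 and 153.9 TPM in knockout buds and 88.2 and 158.8 TPM in control buds, split in the same way, and 0 of the 12 passed in limma. The mitochondrial share of TPM was 10.1% and 7.58% in knockout buds and 9.91% and 8.05% in control buds, so it was lower at 39 somites, and its part in these values was not tested. Stage and sex cannot be told apart in these 4 libraries.

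**Figure D4:**
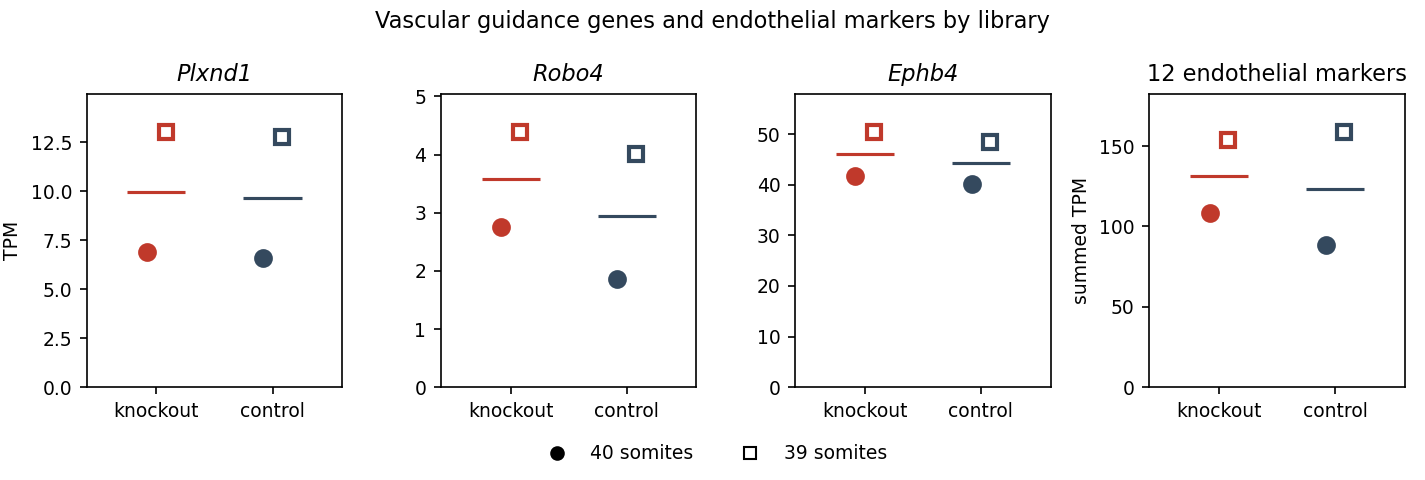
TPM of Plxnd1, Robo4 and Ephb4, and summed TPM of 12 endothelial markers, in each library (y axes, from 0), with knockout libraries in red on the left and control libraries in dark blue on the right; circles are 40 somites, squares 39 somites and lines group means. In each panel the squares lie above the circles in both genotypes. The knockout and control means are 9.98 and 9.67 TPM for Plxnd1, 3.58 and 2.94 TPM for Robo4, and 46.1 and 44.3 TPM for Ephb4.

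The tested guidance genes not selected by the naming rule numbered 22, with log2 fold changes between -0.37 (Sema4a) and 0.32 (Sema5a). Levels among the 59 genes spanned 4 classes: 5 averaged at least 50 TPM over the 4 libraries (Nrp2, Robo2, Plxnb2, Sema3f and Epha4), 21 averaged 10 to 50 TPM, 23 averaged 1 to 10 TPM and 10 averaged under 1 TPM. The 9 genes that were not tested reached at most 0.980 TPM in any library, and 2 genes, Epha10 and Robo3, were listed at 0 in at least 1 library. Summed over all 59 genes, guidance transcripts took 0.103% and 0.118% of TPM in knockout buds, against 0.0901% and 0.106% in control buds. Without Nrp2 and Robo2 the other 57 genes summed to 770.2 and 844 TPM in knockout buds and 770.6 and 899.5 TPM in control buds.

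The partner list of further genes in these pathways held netrin and RGM cues with their receptors, and signalling partners inside the cell, on its surface and secreted. It also held the plexin gene Plxnb3. Of its 63 genes, 52 were tested. In limma 0 rose and 0 fell. Before adjustment 5 were higher and 10 lower at p under 0.05, with a median log2 fold change of -0.02. Over all genes tested 6.78% were higher and 6.89% lower at that threshold. With somite stage as a block 0 were higher and 3 lower, namely Crmp1, Cables1 and Ptpn13. Of all genes tested, 2.08% were higher and 2.08% lower with the block. Ptpn13, named because it was 1 of the 3, stood at 10.4 and 6.63 TPM in knockout buds, against 17.2 and 12.6 in control buds. Crmp1, a cytosolic mediator of the collapse response to Sema3a, stood at 8.52 and 10.9 TPM in knockout buds, against 16.6 and 25.3 TPM in control buds (log2 fold change -1.02 ± 0.22; limma, Benjamini-Hochberg adjusted p = 0.116, and 0.0202 with the block). Its relative Dpysl5 stood at 3.26 and 2.18 TPM in knockout buds, against 5.42 and 5.02 TPM in control buds (-0.76 ± 0.19). Cables1, listed with the Slit-Robo transducers, stood at 1.96 and 2.40 TPM in knockout buds, against 4.48 and 6.07 TPM in control buds (-0.97 ± 0.19).

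The other named partners include both directions. L1cam, an axonal adhesion protein of the Sema3a receptor complex, stood at 0.230 and 0.157 TPM in knockout buds, against 1.34 and 1.17 TPM in control buds (log2 fold change -0.92 ± 0.17; limma, Benjamini-Hochberg adjusted p = 0.0820). Unc5b, a netrin receptor of vessels, stood at 22.3 and 19.5 TPM in knockout buds, against 32.1 and 38.3 TPM in control buds (-0.72 ± 0.14; adjusted p = 0.0850). Rras, a small GTPase that plexins switch off, stood at 14.6 and 15.8 TPM in knockout buds, against 7.08 and 10.9 TPM in control buds (0.72 ± 0.20; adjusted p = 0.195). The 6 were named for their small p, so that their lack of overlap is no result, and over the list 28 of 52 partners did not overlap (53.8%), against 43.9% of all genes. The log2 fold change of Rras was 0.45 without control replicate 1. L1cam reached 1 TPM only in control buds, so it entered the test through the group where it was higher. Its log2 fold change was -2.22 with a pseudocount of 0.1 and -0.27 with a pseudocount of 5. Each of the 6 passed without knockout replicate 1, and L1cam, Cables1 and Crmp1 also without replicate 2.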

How the data were processed

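Per the labels, total RNA came from flash-frozen forelimb pairs of individually genotyped embryos (310 and 330 ng from the knockouts, 340 and 580 ng from the controls, integrity number 10 in all) and was sequenced on a DNBseq platform. The authors deposited 1 table of TPM values with 35727 Ensembl identifiers and 1 column per embryo. Salmon 1.9.0 and the mm10 build are listed in the submitters' processing notes. Which transcripts were used, and how they were summed, is not stated there. TPM keeps no depth, so no count test, counting interval or floor is given, and reads of near-identical or overlapping genes may be divided between them. A column was assigned to a sample by its title, 1 of which lacks a letter of the column name.

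Identifiers were matched to GENCODE M21 (35493, 99.3%), and values of 45 repeated symbols were summed, leaving 35682 genes; every guidance gene had 1 identifier. log2(TPM + 1) was fitted with limma 3.58.1 in R 4.3.3 (lmFit, eBayes with a mean-variance trend, no covariates), which was tested on simulated data. Fold changes are on that scale, which understates changes of low genes. With 2 libraries a side, exact permutation could reach no two-sided p under 0.333 and was not used. The guidance genes named are those with an adjusted or unadjusted p under 0.05, 19 with described limb roles, and the most abundant of each family; of the partner list, the 6 with the smallest p. Any other gene was named with its values already known. The members and all lists were chosen with earlier results of these data known. Somite stage, taken from the labels, pairs 1 library of each genotype; the 40-minus-39 differences of the genotypes correlated over 12809 genes (Pearson 0.250, Spearman 0.364, genes not being independent). Alternatives were pseudocounts of 0.1 and 5, no filter, a filter at 5 TPM, median-ratio and quantile scaling, the stage block, no variance trend, and each library left out.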

Additional observations from a re-analysis of the deposited data

Results flagged for a closer look

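The knockout-minus-control difference of Epha4 was 0.53 on the log2 scale at 40 somites and -0.13 at 39, and that of Slit3 was 0.24 at 40 somites and -0.32 at 39. Both genes are given here because their difference pointed opposite ways at the 2 stages. This was not particular to them, as Epha5, Efna1, Sema4g, Sema7a and Plxnc1 also changed sign. The sign was the same at both stages in 43 of the 50 guidance genes tested, and in 69.2% of all genes tested. With 1 library per genotype and stage, the difference between stages was not tested. In Epha4 and Slit3 the knockout values lay between the control values.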

How the results depend on the processing

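Without a filter on low values, 0 of 20945 genes passed in limma, none of them guidance genes (2338 genes and 13 guidance genes had an unadjusted p under 0.05). Guidance genes called higher numbered 2 as reported, 1 under quantile normalization, 1 without a variance trend, and 0 to 3 when a library was left out. Those called lower numbered 0 as reported, 3 with the stage block, and 0 to 3 when a library was left out. Partner genes called higher ranged from 0 to 1 with a library left out, and partner genes called lower from 0 to 6, with 3 under the stage block and 1 without a variance trend. Over all genes, 167 passed as reported, 533 with the stage block and 50 to 646 with a library left out, the lower counts when a control was missing. In those fits the lone library is assumed to vary like the others, and stage and sex are unbalanced. The cause of these shifts was not tested.

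Log2 fold changes changed sign among named genes only when a library was left out, with ranges of -0.12 to 0.52 for Epha4, -0.40 to 0.096 for Efna4, -0.55 to 0.076 for Sema3c, -0.30 to 0.032 for Plxnb2, -0.38 to 0.47 for Plxnd1 and -0.30 to 0.22 for Slit3. Without a change of sign, leaving out a library moved the log2 fold change by over 1.5 times for several genes that did not pass, among them Epha1 (-0.33 without knockout replicate 2), Sema3b (-0.28 without knockout replicate 2), Slit2 (0.22 without knockout replicate 1), Efna2 (-0.065 without control replicate 2) and Sema3a (0.061 without control replicate 2). Replicate numbers only name the libraries, and the stage block is the paired analysis. Unknown depth limits what can be said of genes near 1 TPM.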
